A study of Mus musculus with 36 samples.

Results

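The fibril-forming collagens are the matrix proteins that assemble into the cross-striated fibrils of cartilage, bone, tendon and skin. Each is made as a procollagen of 3 chains wound into a triple helix, is cut free of its propeptides outside the cell, and then joins a fibril that is cross-linked by lysyl oxidases. Healthy articular cartilage is built on type II collagen with type XI at the fibril core, whereas types I, III and V are the fibrils of bone, tendon, ligament, synovium and repair tissue, so their balance is a standard readout of cartilage phenotype in osteoarthritis (OA). The 10 genes described here were chosen by name, Col2a1, Col11a1 and Col11a2 of cartilage fibrils, Col1a1, Col1a2, Col3a1, Col5a1 and Col5a2 of fibrous fibrils, and the late-described Col24a1 and Col27a1. They are 10 of the 23070 named genes in the RNA counts, and 1 RefSeq transcript row was used for each, the row with the highest mean count, out of 11 rows for these genes and 30048 rows in all. In the methylation data they hold 917 of the 1444973 CpG cytosines tested at 4 weeks and 771 of the 1273121 tested at 12 weeks, counting the gene body and 5 kb on either side.

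Male C57BL/6J mice had the medial meniscus of the right knee destabilized (DMM) at 12 weeks of age, and the unoperated left knee of the same animals was the control. There was no sham operation. Microdissected cartilage of the tibial plateaus and femoral condyles was collected at 4 and 12 weeks after surgery, tissue of 3 knees was pooled in each library, and each limb and week had 3 RNA libraries and, from other mice, 3 DNA libraries. Because a library is a pool and nothing in the labels ties a left pool to a right pool, the p-values below for RNA and for gene means measure the spread between pools. Those of single cytosines count pooled reads and not libraries. The RNA libraries held 27706547 to 62737656 counts, of which the 10 collagens took 0.461% to 1.74%. Skeletal muscle transcripts stood apart between limbs at 4 weeks, where all 12 genes of a muscle list were lower in every DMM library than in every control library, with summed CPM (counts scaled to a common library size) of 5432 to 20360 in controls and 580 to 3291 in DMM, and none of the 12 was at 0. At 12 weeks the same sum ran from 87.4 to 13350 in controls and from 499 to 9696 in DMM. The mean log2 CPM of the muscle list was 8.18 to 10.11 in 4-week controls and 5.19 to 7.29 in 4-week DMM, without overlap. Where this level enters a model of the 4-week limbs below, limb and muscle can therefore hardly be told apart.

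Across the 10 genes, Col3a1, Col5a1 and Col5a2 had higher levels in DMM cartilage at 4 weeks, and Col3a1, Col5a1, Col24a1 and Col27a1 at 12 weeks, with no overlap between the limbs. Col1a1 and Col1a2 overlapped between limbs at both weeks, with log2 fold changes of -0.09 to 0.14 (SE 0.30 to 0.49). No collagen passed edgeR's quasi-likelihood test at a Benjamini-Hochberg adjusted p under 0.05, which 0.0757% of all transcripts passed at 4 weeks and 0.00476% at 12 weeks. At an unadjusted p under 0.05 the counts were 3 of 10 at 4 weeks, against 13.7% of all transcripts, and 6 of 10 at 12 weeks, all higher in DMM, against 16.3% of all transcripts in either direction and 8.94% higher. DESeq2, the test named in the study's methods, called 1 collagen at 4 weeks and 3 at 12 weeks at an adjusted p under 0.05, against 3.44% and 4.02% of all transcripts. With the replicate number as a block, edgeR called 5 collagens at 12 weeks, against 3.49% of all transcripts, and 0 at 4 weeks, against 1.67%. No label says that this number marks a pair. The libraries of the limbs did not overlap for 4 collagens at 4 weeks, 3 higher and 1 lower in DMM, and for 4 at 12 weeks, all higher, where 21.2% and 18.8% of all transcripts did not overlap in either direction. The median log2 fold change over the 10 genes was 0.09 at 4 weeks and 0.69 at 12 weeks, and over all transcripts it was -0.03 and 0.01. Whether a gene's RNA differed because fewer cells made it or because each cell held less cannot be told apart in these bulk samples.

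**Figure D1:**
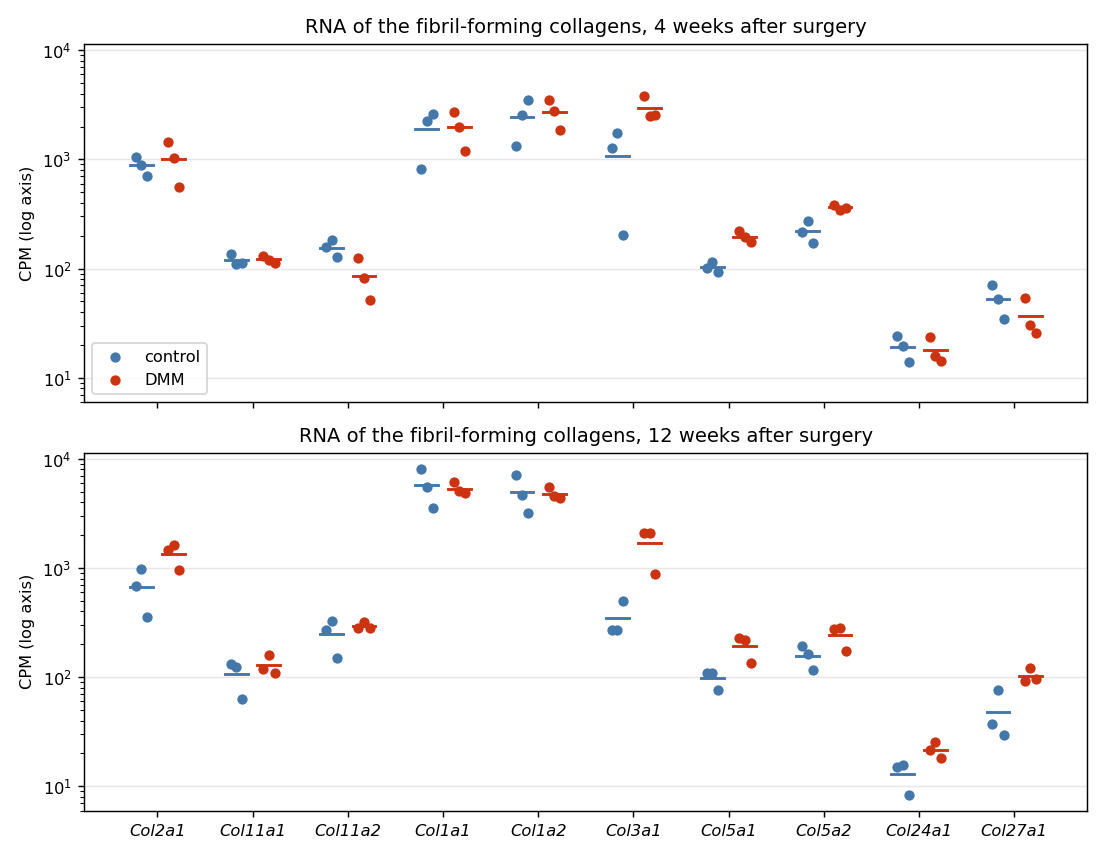
CPM of each collagen on a log axis in the 3 control and 3 DMM libraries at 4 weeks (top) and 12 weeks (bottom), with bars at the group mean. Col3a1 and Col5a1 sit higher in every DMM library than in every control library at both weeks, and the points of Col1a1 and Col1a2 overlap.

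**Figure D2:**
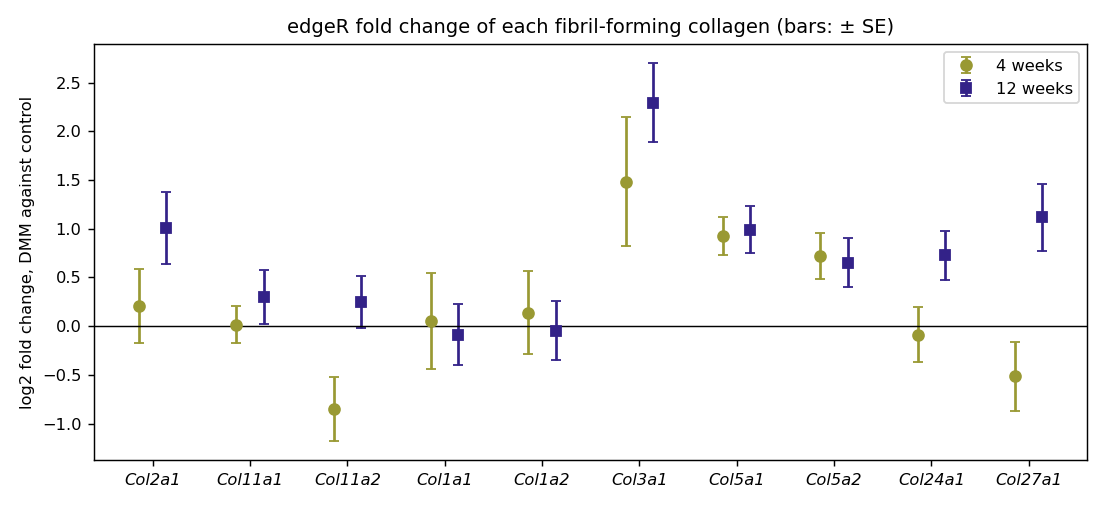
Log2 fold change of DMM against control from edgeR for each collagen at 4 and 12 weeks, with bars of 1 SE. Col3a1 has the largest value at both weeks, 1.48 and 2.29, and Col11a2 and Col27a1 lie below 0 at 4 weeks and above 0 at 12 weeks. With the muscle genes' level in the model, which itself did not overlap between limbs at 4 weeks, their 4-week values were -0.03 and 0.67.

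Levels per transcript length gave the order of the collagens within each group. In control cartilage at 4 weeks, Col1a2 (470 ± 207 RPKM, the CPM per kb of transcript, SD, n = 3), Col1a1 (319 ± 161), Col3a1 (191 ± 140) and Col2a1 (172 ± 33.6) stood at the top and overlapped one another in this order, Col2a1 did not overlap the next gene, Col5a2 (33.3 ± 7.80), and Col24a1 (2.68 ± 0.710) stood at the bottom. In control cartilage at 12 weeks, Col1a1 (963 ± 386 RPKM) and Col1a2 (957 ± 380) did not overlap the next gene, Col2a1 (131 ± 60.7). In DMM cartilage at 12 weeks, Col3a1 (303 ± 126 RPKM) came next after the type I genes and overlapped Col2a1 (262 ± 67.8), below Col1a2 (921 ± 113) and Col1a1 (901 ± 111). A type I gene had the highest level in the other 3 groups, while Col3a1 (531 ± 136 RPKM) was on top in DMM cartilage at 4 weeks and overlapped Col1a2 (519 ± 158). Tissue labelled as cartilage also held the chondrocyte list, with a summed CPM of 15520 to 61080 over its 16 genes in all 12 libraries, of which Epyc was lowest, at 3 counts in 1 library.

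Col2a1 encodes the chain of type II collagen, the main fibril of hyaline cartilage, and lies on chr15:97975602-98004724 (GRCm38, minus strand). At 4 weeks it measured 1052, 895 and 707 CPM in controls and 1459, 1034 and 560.4 in DMM. The limbs overlapped (log2 fold change 0.21, SE 0.38, edgeR adjusted p = 0.802), and the fold change was 1.31 with the muscle genes' level in the model (adjusted p = 0.903). At 12 weeks it measured 686, 979 and 356 CPM in controls and 1460.3, 1624 and 956 in DMM. DMM library 3 lay just under the highest control, so the limbs overlapped by that library, and the log2 fold change of 1.01 (SE 0.37) had an unadjusted p of 0.0251 and an adjusted p of 0.273 in edgeR.

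The files count Col2a1 on a pair of transcripts that differ by exon 2, NM_031163 with it and NM_001113515 without it. This alternatively spliced exon encodes the cysteine-rich domain of the amino propeptide and is known from the procollagen form of chondroprogenitors, while mature chondrocytes mostly skip it. The exon spans chr15:98000403-98000606 (204 bp), and its RefSeq sequence on the coding strand, with its 5 CpGs in capitals, none of which was tested for methylation, is shown because the difference between the 2 rows counts its reads.
Col2a1 exon 2: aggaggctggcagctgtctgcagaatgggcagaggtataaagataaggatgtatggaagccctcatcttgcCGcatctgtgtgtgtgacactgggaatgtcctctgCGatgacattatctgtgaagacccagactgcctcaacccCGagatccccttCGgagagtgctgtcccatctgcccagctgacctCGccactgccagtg

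Subtracting the row without exon 2 from the row with it gives the reads that touched this exon and no other. Reads that reach another exon are left out, and reads that run into an intron are not, so exon use is not measured directly. This comparison was chosen after its values were seen. At 4 weeks there were 57.9, 128 and 160.5 such reads per 100000 Col2a1 reads in controls and 57.9, 78.8 and 59.8 in DMM, from 11 to 61 reads a library. The limbs overlapped at 4 weeks. At 12 weeks there were 1209, 444 and 869.7 per 100000 in controls and 381, 276 and 205 in DMM, from 86 to 350 reads. The raw exon reads, not scaled to depth, were 350, 269 and 114 in controls and 264, 117 and 86 in DMM, and overlapped. The rate divides by Col2a1 reads, which were higher on average in 12-week DMM (log2 fold change 1.01), so it can fall without fewer exon reads. Every 12-week DMM library lay below every control library, with means of 841 ± 383 and 287 ± 88.9 (SD, n = 3; exact permutation test, two-sided, p = 0.1, the smallest that 3 against 3 can give). The closest libraries were control 2 and DMM 1, whose 95% Wilson intervals, which cover counting error only, ran from 394 to 500.0 and from 338 to 429.9 and overlapped. All 6 libraries of 12 weeks lay above all 6 of 4 weeks, a gap that cannot be told apart from the mice's age or from the time of harvest and library making.

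**Figure D3:**
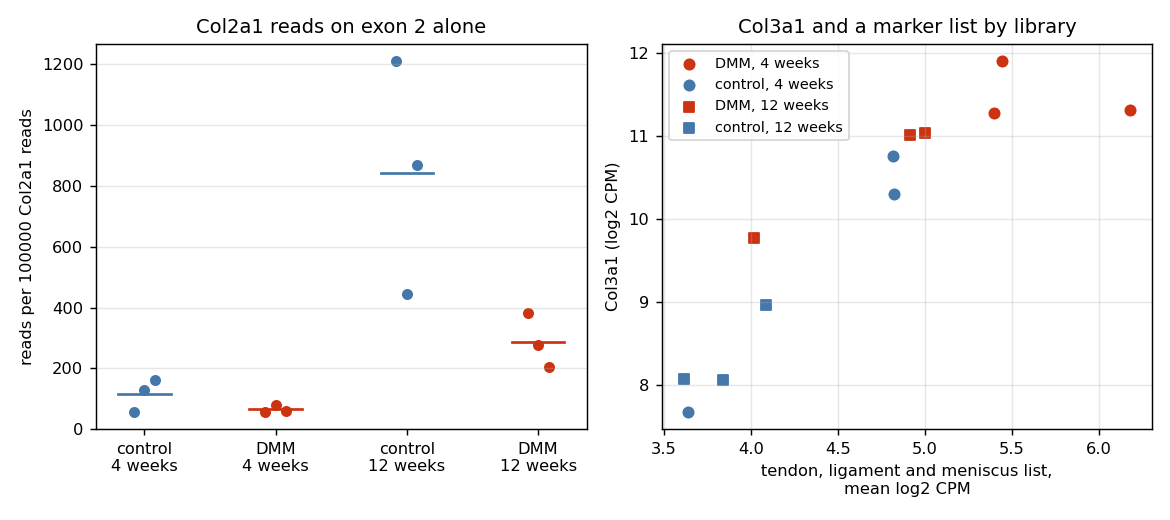
Left, reads on exon 2 alone per 100000 Col2a1 reads by library, with bars at the group mean, where the 12-week controls (444 to 1209) lie above the 12-week DMM libraries (205 to 381). Right, Col3a1 in log2 CPM against the mean log2 CPM of the tendon, ligament and meniscus list, 1 point a library, with a Pearson r of 0.91 over the 12 libraries against the list's mean.

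Col11a1 (chr3:114030479-114220756, plus strand) and Col11a2 (chr17:34038919-34066684, plus strand) encode 2 of the chains of type XI collagen, which sits inside the type II fibril and limits its width. Col11a1 ran from 109 to 137 CPM in 4-week controls and from 112 to 131 in DMM, and at 12 weeks from 62.6 to 131 in controls and from 109 to 160.5 in DMM, with overlap at both weeks. Col11a2 measured 157, 183 and 127 CPM in 4-week controls and 125, 82.0 and 51.1 in DMM. The limbs were separate but close, 125 against 127, and the log2 fold change of -0.85 (SE 0.33) had an unadjusted p of 0.0326 and an edgeR adjusted p of 0.344, and was -0.03 with the muscle genes' level in the model. At 12 weeks Col11a2 measured 273, 328 and 151 CPM in controls and 282, 323 and 282 in DMM, which overlapped. The difference of the DMM effect between the weeks was 1.09 on the log2 scale for Col11a2 (unadjusted p = 0.0340, edgeR adjusted p = 0.405).

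Col1a1 (chr11:94936224-94953042, plus strand) and Col1a2 (chr6:4505618-4541543, plus strand) encode the chains of type I collagen, the fibril of bone, tendon and skin. Col1a1 measured 813, 2256 and 2612 CPM in 4-week controls and 2738, 1967 and 1193 in DMM. Col1a1 measured 8092, 5510.1 and 3525 CPM in 12-week controls and 6099.8, 5030.4 and 4901 in DMM. Its limbs overlapped at both weeks, with log2 fold changes of 0.05 (SE 0.49) and -0.09 (SE 0.31). Changes well beyond such errors could also go uncalled here, as the 12-week change of Col3a1 (2.29, SE 0.41) had an edgeR adjusted p of 0.122. Col1a2 behaved like Col1a1, at 1336, 2528 and 3493 CPM in 4-week controls, 3506, 2763 and 1858 in DMM, 7129, 4663 and 3204 in 12-week controls and 5486, 4536 and 4407 in DMM, with log2 fold changes of 0.14 (SE 0.43) and -0.05 (SE 0.30). Pearson's r between the 2 genes was 0.981 over the 12 libraries.

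Col3a1 (chr1:45311538-45349706, plus strand) encodes type III collagen, which forms thin fibrils with type I in distensible and repairing tissue. At 4 weeks it measured 1259, 1731 and 205 CPM in controls and 3829, 2486 and 2550.0 in DMM. Every DMM library lay above every control, but the controls spanned a wide range because control 3 was low, and the log2 fold change of 1.48 (SE 0.66) had an edgeR adjusted p of 0.371. At 12 weeks it measured 269, 268 and 500.0 CPM in controls and 2105, 2077 and 874 in DMM. The limbs were apart, with the 12-week log2 fold change at 2.29 (SE 0.41, 4.91-fold), rank 84 by p among 21010 transcripts, an edgeR adjusted p of 0.122 and a DESeq2 adjusted p of 2.02e-07. Without 12-week DMM library 3, the lowest of its group, the edgeR adjusted p was 0.0372 and the log2 fold change 2.61, when 0.481% of all transcripts passed. Leaving out the lowest DMM library by itself raises the difference, and Col3a1 passed without no other single library.

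Col5a1 (chr2:27886381-28039510, plus strand) and Col5a2 (chr1:45374331-45503282, minus strand) encode chains of type V collagen, which starts type I fibrils and limits their diameter. Col5a1 measured 101, 116 and 93.7 CPM in 4-week controls and 219.8, 193 and 176 in DMM, and 109, 109 and 77.0 in 12-week controls and 229, 218 and 135 in DMM. Every DMM library of a week lay above every control library, with log2 fold changes of 0.92 (SE 0.19) and 0.99 (SE 0.24), and the difference between the weeks was 0.06 (SE 0.31, edgeR adjusted p = 0.942). The edgeR adjusted p was 0.218 at 4 weeks and 0.211 at 12 weeks, and DESeq2 called Col5a1 at both, at 8.89e-04 and 0.00743. Col5a2 measured 216, 274 and 171 CPM in 4-week controls and 385, 344 and 359 in DMM, and 192, 163 and 115 in 12-week controls and 277, 283 and 174 in DMM. Col5a2 was apart between limbs at 4 weeks (log2 fold change 0.72, SE 0.23, edgeR adjusted p = 0.300) and overlapped by DMM library 3 at 12 weeks (0.65, SE 0.25, adjusted p = 0.279). The other chain gene of type V, Col5a3, had log2 fold changes of 0.53 and 0.71 (edgeR adjusted p = 0.388 and 0.299).

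Col24a1 (chr3:145292472-145552013, plus strand) and Col27a1 (chr4:63214009-63334991, plus strand) encode the fibrillar collagens described last, type XXIV of developing bone and type XXVII of cartilage, above all where it calcifies. Col24a1 measured 23.99, 19.5 and 13.9 CPM in 4-week controls and 23.7, 15.8 and 14.3 in DMM, which overlapped, and 15.1, 15.7 and 8.40 in 12-week controls and 21.3, 25.5 and 18.1 in DMM, which did not. The 12-week log2 fold change of Col24a1 was 0.73 (SE 0.25, edgeR adjusted p = 0.263). Col27a1 measured 71.0, 53.0 and 34.4 CPM in 4-week controls and 54.3, 30.3 and 25.8 in DMM, with a log2 fold change of -0.52 (SE 0.35), which was 0.67 with the muscle genes' level in the model. At 12 weeks Col27a1 measured 36.9, 77.0 and 29.4 CPM in controls and 91.9, 122 and 95.8 in DMM. Col27a1 overlapped between limbs at 4 weeks and was apart at 12 weeks, where its log2 fold change was 1.12 (SE 0.34, edgeR adjusted p = 0.246, DESeq2 adjusted p = 0.0278). Without 12-week control 2, the highest control, the value was 1.61 with an edgeR adjusted p of 0.0324, when 4.04% of all transcripts passed. Leaving out the highest control by itself raises the difference, and at 12 weeks Col27a1 passed without no other single library.

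The difference of the DMM effect between the weeks was tested as the interaction of limb and week. No collagen passed in edgeR, where 0.0% of all transcripts did, and none passed in DESeq2, where 0.0613% did. At an unadjusted p under 0.05 there were 2 collagens, Col27a1 (1.63, SE 0.54, edgeR adjusted p = 0.405) and Col11a2, against 12.3% of all transcripts. With the muscle genes' level in the model, added after seeing the data, these differences between the weeks were 1.48 and 1.16 (edgeR adjusted p = 0.903 for both). Between the weeks within controls, no collagen passed against 5.69% of all transcripts, and 3 had an unadjusted p under 0.05 against 25.4%. Col1a1 came closest there, with a log2 fold change of 1.59 and an edgeR adjusted p of 0.0567, and DESeq2 called Col1a1 and Col3a1, against 13.5% of all transcripts. Without 4-week control 3, Col1a1 (1.87, edgeR adjusted p = 0.0171), Col1a2 (1.35, 0.0277) and Col3a1 (-2.14, 0.00405) passed in that comparison, as did 21.4% of all transcripts. Within DMM cartilage, Col11a2 (1.78, edgeR adjusted p = 0.00532), Col27a1 (1.49, 0.0192) and Col1a1 (1.44, 0.0361) rose from 4 to 12 weeks, where 23.6% of all transcripts passed, and DESeq2 called the same 3 genes, against 29.9%. Col11a2 kept its call without any one library, whereas Col1a1 lost it without DMM 4-week library 2 (adjusted p = 0.115) or 3 (0.174) or any DMM 12-week library (0.0779 to 0.0964), and Col27a1 lost it without DMM 4-week library 2 (0.0790) or 3 (0.0980) or DMM 12-week library 2 (0.0605). Their log2 fold changes under these omissions were 1.14 to 1.501 for Col1a1 and 1.24 to 1.33 for Col27a1, and 7.69% to 14.2% of all transcripts then passed. Of 12 marker lists, 2 had a higher summed CPM in every 12-week DMM library than in every 4-week one and 5 a lower one, whereas none was apart between the control weeks. The neutrophil and bone marrow list of 8 genes, none of them at 0 in any library, summed to 12730 to 18930 CPM in 4-week DMM and 19670 to 32500 in 12-week DMM, and the chondrocyte list was also higher. The macrophage list summed to 550.2 to 1011 CPM in 4-week DMM and 296.7 to 416.3 in 12-week DMM. The lists for fibroblasts, osteoblasts, endothelium and adipocytes were the other 4 that were lower. On the mean log2 CPM of a list, the chondrocyte and osteoblast lists overlapped between the DMM weeks, the latter averaging 7.692 at 4 weeks and 7.787 at 12 weeks. The tendon, ligament and meniscus list was lower in 12-week DMM without overlap on that measure. Between control weeks the neutrophil list was higher and the fibroblast list lower without overlap on it. Over the 12 libraries Col1a1 had an r of 0.746 with the mean of the neutrophil and bone marrow list, and the part of these lists in the collagen values was not tested. Week cannot be told apart from age, harvest and library making in either limb.

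Ratios between chains within a library do not depend on how libraries are scaled, and 6 ratios per kb were compared at each week. At 4 weeks 1 of the 6 did not overlap between limbs, as in 20.9% of all pairs among 13819 genes with at least 10 counts in every library, a background added after seeing the data. The log2 ratio of Col11a1 to Col11a2 was -0.48, -1.03 and -0.45 in controls and -0.21, 0.26 and 0.86 in DMM. With the muscle genes' level in the model the 4-week log2 fold changes of these chains were 0.36 and -0.03. At 12 weeks 4 of the 6 did not overlap, against 20.2% of all pairs. The log2 ratio of Col1a1 to Col2a1 was 3.35, 2.28 and 3.10 in 12-week controls and 1.85, 1.42 and 2.15 in DMM, lower by 1.10 on average. The log2 ratio of Col3a1 to Col1a1 was -4.82, -4.27 and -2.73 in 12-week controls and -1.44, -1.18 and -2.40 in DMM, higher by 2.26. The ratio of Col11a1 to Col2a1 was lower in 12-week DMM (-3.95 ± 0.24 against -3.21 ± 0.31, SD, n = 3) and that of Col5a1 to Col5a2 was higher (-0.62, -0.72 and -0.71 against -1.16, -0.92 and -0.93 in controls). Each of these 5 had p = 0.1 by the exact permutation test, two-sided, the smallest possible. The ratios of Col1a1 to Col1a2 and of Col11a1 to Col11a2 overlapped at 12 weeks, with differences of -0.04 and 0.04.

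Over the 12 RNA libraries, described with no test because the points share limb, week and depth, Col2a1 was closest among the collagens to Col24a1 (Pearson r = 0.918 of log2 CPM) and Col11a1 (0.795). Col3a1 was closest to Col5a2 (0.843) and Col5a1 (0.786), whereas Col1a1 and Col3a1 had an r of -0.388. Among 15588 genes, the profiles most like that of Col2a1 were those of Zbtb7c (0.954), the alkaline phosphatase gene Alpl (0.946), Iqsec2 (0.928), Creb3l1 (0.927) and the zinc transporter gene Slc39a13 (0.925). Col1a1 was followed most closely by Col1a2, then Entpd7 (0.973), 2700038G22Rik (0.942), Irak4 (0.938) and Bicra (0.937). Col3a1 was followed by the prolyl 4-hydroxylase subunit gene P4ha3 (0.988), Nbl1 (0.988), Fndc1 (0.984), Igfbp6 (0.971) and C1qtnf1 (0.961).

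Lists of markers for the fibrous tissues next to cartilage were compared beside Col3a1, Col5a1 and Col5a2, with 47.5% of all transcripts above 0 in their fold change at 4 weeks and 51.5% at 12 weeks. No gene of the tendon, fibroblast, osteoblast or hypertrophic chondrocyte lists passed edgeR's adjusted threshold at either week. The tendon, ligament and meniscus list summed to 225 to 696 CPM in 4-week controls and 959 to 1328 in DMM, and to 247 to 456 in 12-week controls and 724 to 1438 in DMM, with 6 of 6 genes above 0 in their fold change at both weeks and none of the 6 at 0 in any library, the lowest being Kera at 6 counts. A sum gives most weight to genes with high counts. The lowest count in any library was 6769 for Fmod and 3117 for Thbs4, against 230 for Mkx, 109 for Scx and 11 for Tnmd. Some lists share genes and are not independent. Fmod is also in the chondrocyte list and among the fibril regulators below, and Alpl is in the osteoblast and hypertrophic chondrocyte lists. On the mean log2 CPM of the tendon, ligament and meniscus list the limbs overlapped at 12 weeks, where the highest control stood at 4.085 and the lowest DMM library at 4.018. Tnmd, the tenomodulin gene of tendon, had log2 fold changes of 3.61 at 4 weeks (no overlap) and 2.13 at 12 weeks (overlap). The fibroblast and synovium list summed to 150 to 318 CPM in 4-week controls and 432 to 715 in DMM, and to 119 to 164 in 12-week controls and 177 to 220.3 in DMM, with 7 of 8 genes above 0 at 4 weeks and 6 of 8 at 12 weeks and none of the 8 at 0. Over the 12 libraries, Col3a1 had an r of 0.91 with the mean of the tendon list and 0.883 with that of the fibroblast list, Col5a2 had 0.86 and 0.879, and Col5a1 0.701 and 0.637. Their part in the collagen values was not tested. The osteoblast and osteocyte list summed to 3965 to 6485 CPM in 4-week controls against 7583 to 8750 in DMM, and to 2735 to 4239 in 12-week controls against 5064 to 7021 in DMM, with 8 of 10 genes above 0 at both weeks. Its mean had an r of 0.874 with Col2a1, 0.874 with Col5a1 and 0.793 with Col11a1. With the type I genes Col1a1 and Col1a2 the r of this list was 0.259 and 0.329, and with Col11a2 it was 0.24. The hypertrophic chondrocyte list summed to 6191 to 7232 CPM against 8919 to 11690 at 4 weeks and to 5243 to 7664 against 8597 to 11200 at 12 weeks, and its mean had an r of 0.862 with Col2a1 and 0.848 with Col5a1. The macrophage list, of which 5 of 6 genes had a row, had an r of -0.876 with Col11a2 and -0.841 with Col27a1. At 12 weeks 8 of 8 neutrophil and bone marrow genes, 6 of 6 erythroid and 5 of 5 macrophage genes lay below 0 (medians -0.51, -0.32 and -0.41). At 4 weeks 5 of 8, 3 of 6 and 0 of 5 did (medians -0.05, -0.06 and 0.80). Col3a1 had an r of -0.684 with the neutrophil list and Col24a1 -0.828 with the erythroid list, whereas Col1a1 had 0.746 and 0.23. The part of none of these lists was tested. In the chondrocyte list 13 of 16 genes lay below 0 at 4 weeks (median log2 fold change -0.73) and 16 of 16 above 0 at 12 weeks (0.50), and its mean had an r of 0.772 with Col2a1, 0.831 with Col24a1, 0.744 with Col27a1 and 0.329 with Col11a2. The part of the chondrocyte genes was not tested either. When the muscle genes' mean level entered the model, the 4-week log2 fold changes were 2.38 for Col3a1, 1.12 for Col5a1, 0.81 for Col5a2, -0.03 for Col11a2, 0.67 for Col27a1, 1.31 for Col2a1, 0.36 for Col11a1, 0.76 for Col24a1, -0.13 for Col1a1 and -0.0460 for Col1a2, all with an edgeR adjusted p of 0.903 or more. The muscle level did not overlap between limbs at 4 weeks, so this model can hardly tell limb and muscle apart, and 0.0% of all transcripts passed in it.

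The genes that act on fibril-forming collagens were described as lists, and no gene of these lists passed edgeR's adjusted threshold at either week. By DESeq2, which called 3.44% of all transcripts at 4 weeks and 4.02% at 12 weeks, 7 of 21 fibril regulators, 2 of 10 degradation genes and 1 of 8 receptors were higher in DMM at 4 weeks. At 12 weeks it called 9 of 21 fibril regulators, 2 of 20 modification genes, 2 of 10 degradation genes, 1 of 7 propeptide genes and 1 of 6 cross-linking genes higher, and it called no gene of these lists lower at either week. Fibril regulators and associated proteins had the highest median of these lists at both weeks, with 14 of 21 genes above 0 at 4 weeks and 21 of 21 at 12 weeks, where 47.5% and 51.5% of all transcripts were above 0, and medians of 0.56 and 0.78. Lum, the keratan sulfate proteoglycan lumican that spaces fibrils, had log2 fold changes of 2.27 (edgeR adjusted p = 0.180) and 1.68 (0.0864), and passed by DESeq2 at both weeks (adjusted p = 5.63e-08 and 1.14e-07). Also smallest by p in this list were Col12a1 (1.17) and Postn (1.96) at 4 weeks, a fibril-bound collagen and the matricellular periostin, and Fmod (2.06) and Fn1 (0.98) at 12 weeks, the proteoglycan fibromodulin and fibronectin. Procollagen modification and folding genes had 6 of 20 above 0 at 4 weeks (median -0.17) and 19 of 20 at 12 weeks (0.59). The genes of smallest p there were Ppib (0.49), P3h2 (-1.06) and Colgalt2 (-0.90) at 4 weeks, a folding isomerase, a prolyl 3-hydroxylase and a collagen galactosyltransferase, and P4ha3 (1.93), P3h3 (1.24) and Crtap (0.74) at 12 weeks, all of prolyl hydroxylation. None of these passed by edgeR, with adjusted p of 0.357 to 0.378 at 4 weeks and 0.205 to 0.261 at 12 weeks.

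Propeptide removal had 5 of 7 tested genes above 0 at both weeks (medians 0.06 and 0.65). Pcolce, which speeds the cleavage of the carboxyl propeptide, had 0.90 at 4 weeks and 1.32 at 12 weeks (edgeR adjusted p = 0.324 and 0.123). The other genes of smallest p were Adamts3 (1.03) and Tll1 (0.28) at 4 weeks and Bmp1 (0.65) and Pcolce2 (0.69) at 12 weeks. Cross-linking enzymes had 2 of 6 above 0 at 4 weeks and 6 of 6 at 12 weeks (medians -0.25 and 0.46), led by Loxl1 (0.70), Lox (-0.85) and Loxl4 (-0.48) at 4 weeks and by Loxl2 (1.58), Loxl3 (0.50) and Loxl1 (0.42) at 12 weeks, all of the lysyl oxidase family. Collagen receptors had 7 of 8 tested genes above 0 at 4 weeks and 5 of 8 at 12 weeks (medians 0.45 and 0.26), and the fibrillar collagen receptor kinase Ddr2 had 0.90 and 0.63. Next to Ddr2 came Itgb1 (0.58) and Lair1 (0.89) at 4 weeks and Lair1 (-0.67) and Ddr1 (0.49) at 12 weeks. Degradation and uptake genes had 7 of 10 above 0 at 4 weeks and 8 of 10 at 12 weeks (medians 0.38 and 0.32). The gelatinase gene Mmp2 had 1.41 and 1.15 (edgeR adjusted p = 0.227 and 0.211), the inhibitor gene Timp1 1.18 and the collagenase gene Mmp13 0.93 at 4 weeks, and Timp2 1.14 and Mmp14 0.41 at 12 weeks. Transcription factors of collagen genes had 5 of 10 above 0 at 4 weeks and 9 of 10 at 12 weeks (medians -0.02 and 0.38). At 4 weeks Sox9, the factor that drives Col2a1 and Col11a2, had -1.03 (edgeR adjusted p = 0.330), Cebpb -1.23 and Sp1 0.42, and at 12 weeks Runx2 had 0.41, Sox5 0.71 and Sp7 0.34.

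Reduced representation oxidative bisulfite sequencing measured 5-methylcytosine (5mC) at CpG cytosines, as the percentage of reads with C after oxidation has removed 5-hydroxymethylcytosine (5hmC). All 1688 tests on collagen cytosines fell on a CpG of the reference. Coverage at these cytosines ran from 10 to 329 reads a library at 4 weeks and from 10 to 196 at 12 weeks. The cytosines were spread unevenly, with 297 at Col27a1, 176 each at Col2a1 and Col5a1 and 11 each at Col3a1 and Col5a2 at 4 weeks, so the last 2 are described by few positions.

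Mean 5mC over a gene was lower in DMM at both weeks in all 10 collagens, as in 77.1% of genes with a control mean of at least 10% at 4 weeks and 77.5% at 12 weeks. At 4 weeks every gene overlapped between limbs, where 8.4% of genes with at least 5 cytosines did not. At 12 weeks 8 of 10 did not overlap, all lower in DMM, whereas 26.6% of genes were lower without overlap, or 30.1% of those with a control mean of at least 10%. That restriction was added after seeing the data. With at least 20 reads in every library the count was 5, against 29.6% of genes in either direction, and with reads pooled over the cytosines of a gene it was 5, against 15.4%. Col2a1 and Col11a1 were the 2 that overlapped. The difference was largest in the type I genes. Col1a1 measured 35.8%, 38.2% and 41.8% in 12-week controls and 26.1%, 29.4% and 28.9% in DMM, a difference of -10.5 percentage points over 56 cytosines. Col1a2 measured 23.9%, 25.2% and 27.1% in controls and 13.5%, 15.0% and 20.2% in DMM over 13 cytosines (-9.17 points). The other genes without overlap differed by -7.08 points at Col5a2 over 11 cytosines, -5.07 at Col11a2 over 101, -4.94 at Col3a1 over 5, -4.56 at Col27a1 over 219, -4.01 at Col5a1 over 167 and -3.70 at Col24a1 over 26. At Col3a1 the gap was slight, with DMM 3 at 25.81% just under control 3 at 25.82%. The overlapping Col2a1 and Col11a1 differed by -3.22 points over 144 cytosines and -2.91 over 29. The mean over all cytosines was also lower in 12-week DMM, at 29.1% ± 0.37 against 30.0% ± 0.31 (SD, n = 3). The median difference was -0.413 points over genes and -0.729 over those with a control mean of at least 10%, as all 10 collagens had. Each gene mean without overlap had p = 0.1 by the exact permutation test, two-sided, the smallest possible.

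**Figure D4:**
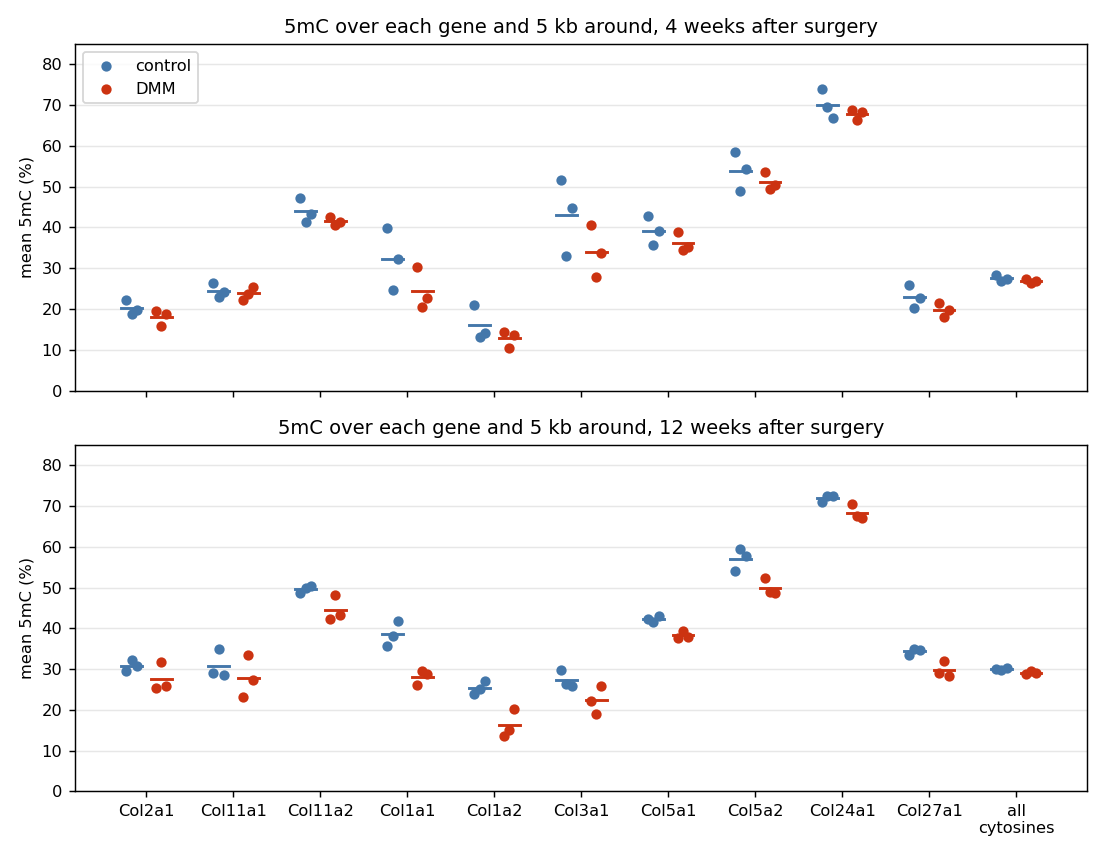
Mean 5mC in percent over each collagen gene and 5 kb around it, 1 point a library, with bars at the group mean, at 4 weeks (top) and 12 weeks (bottom), beside the mean over all cytosines. At 12 weeks the DMM points of 8 genes lie below all their control points, by 3.70 to 10.5 points on average.

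At 4 weeks these counts turned on single libraries. Without 4-week control 2, which had the deepest coverage (median of 127 reads at collagen cytosines) and the lowest 5mC of the controls at 9 of these genes, 7 of the 10 gene means no longer overlapped, as in 42.6% of all genes with at least 5 cytosines. With the same omission 4 collagen cytosines were called, where 0.21% of all were, and 2 regions, where 0.281% of all runs passed. Without 4-week DMM 1, 4 gene means did not overlap, against 28.2% of all genes, and 1 cytosine was called, against 0.0136% of all. At 12 weeks leaving out a library gave 8 to 10 gene means without overlap, against 35.7% to 46.8% of all genes. Between the weeks, the cytosines covered in all 12 libraries gave control means that were higher at 12 weeks without overlap at Col2a1 (24.9% against 30.2%, 141 cytosines) and Col11a2 (42.1% against 49.1%, 91 cytosines), where 18.4% of genes did not overlap in either direction. The same 2 genes were higher without overlap in DMM (22.3% against 27.1% and 39.0% against 43.7%), where 19.9% of genes did not overlap. These gaps cannot be told apart from age and library making.

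Within genes, low and high 5mC were split by position. Within 1 kb of the transcript start, 12-week control means were 0.67% at Col11a1, 0.78% at Col5a1, 0.84% at Col27a1, 1.33% at Col2a1, 2.11% at Col1a2 and 3.40% at Col5a2. The start of Col11a2 was higher, at 18.8%, 16.7% and 18.7% in 12-week controls and 8.65%, 13.01% and 11.7% in DMM. These limbs did not overlap, and 12 of the 26 cytosines there did not overlap either, all lower in DMM, where 5.57% of all cytosines were lower without overlap. At 4 weeks the same window of Col11a2 measured 11.9% ± 3.64 in controls and 7.69% ± 2.93 in DMM and overlapped. Farther than 1 kb from the start, the 12-week control means ran from 27.3% at Col3a1 to 77.2% at Col5a2, and DMM means were lower by 3.70 points at Col24a1 and by 4.14 to 12.4 points at the others. Col5a1 did not overlap on either side, at 0.78% against 0.50% near its start and 68.7% against 62.3% farther on. Col3a1 and Col24a1 had no tested cytosine within 1 kb of the start, and Col1a1 had 1 at 12 weeks (62.4% in controls, 43.7% in DMM, with overlap) and none at 4 weeks.

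The promoters of Col5a1 and Col3a1 are shown because both genes had higher RNA in DMM at both weeks, yet only the promoter of Col5a1 could be read for methylation. They are the 250 bases before the start (RefSeq, GRCm38), with a match to TATAA, or TTATA on the other strand, in capitals.
Col5a1 promoter, chr2:27886175-27886424, plus strand: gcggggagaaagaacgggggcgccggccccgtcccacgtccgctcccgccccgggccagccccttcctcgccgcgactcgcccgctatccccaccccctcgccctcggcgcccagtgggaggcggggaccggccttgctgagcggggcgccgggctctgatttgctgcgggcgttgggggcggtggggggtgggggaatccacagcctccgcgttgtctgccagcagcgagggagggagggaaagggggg
Col3a1 promoter, chr1:45311288-45311537, plus strand: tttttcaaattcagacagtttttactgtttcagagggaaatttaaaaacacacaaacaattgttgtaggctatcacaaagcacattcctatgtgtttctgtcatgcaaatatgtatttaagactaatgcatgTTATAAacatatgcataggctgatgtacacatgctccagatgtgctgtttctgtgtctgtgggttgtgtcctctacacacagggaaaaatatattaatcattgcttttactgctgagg
The Col5a1 window holds 28 CpGs, a number reached by 7.61% of 32851 promoter windows, whose median is 6, and 13 of its cytosines were tested at each week. The Col3a1 window holds 0 CpGs and could not be read. The TATAA letters of Col3a1 and their overlapping TTATA lie 117 and 118 bases before the start, 22.8% of promoter windows hold either, and 33.8% hold CCAAT or ATTGG, which neither of these windows holds. A promoter sequence was matched for 7 of the 10 collagens, and not for Col1a1, Col2a1 and Col5a2.

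Single cytosines were tested on pooled reads with a logistic model, and called at a difference of at least 25 points and a q under 0.05. The differences given for cytosines and regions are read-weighted, that is, between the pooled reads of each limb, so they need not equal the difference of the library means. At 4 weeks 0 of 917 collagen cytosines were called, against 0.000554% of all cytosines and 0.000346% called lower, and at an unadjusted p under 0.05 there were 69 lower and 22 higher, against 8.02% of all cytosines in either direction. At 12 weeks 3 of 771 were called, all lower in DMM, against 0.227% of all cytosines and 0.2% called lower, with 149 lower and 6 higher at an unadjusted p under 0.05, against 9.43%. The limbs did not overlap at 57 lower and 10 higher cytosines at 4 weeks, where 6.22% of the collagen cytosines and 3.74% of all cytosines were lower, and at 119 lower and 6 higher at 12 weeks, 15.4% against 5.57%. Among all cytosines 2.39% and 2.54% were higher without overlap. With the spread between libraries taken into the test no collagen cytosine was called (smallest q of 0.907 at 12 weeks), since the pooled test counts reads and not libraries. Leaving out 1 library gave 1 to 8 called cytosines at 12 weeks, where 0.129% to 0.409% of all cytosines were called, and a difference of 20 points gave 15, against 0.674%.

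The 3 called cytosines lie in Col5a1 and Col27a1. In intron 9 of Col5a1, the cytosine at chr2:27954012 measured 44.8%, 44.2% and 38.0% in 12-week controls and 16.95%, 5.13% and 12.1% in DMM, from 39 to 118 reads (-29.0 points, q = 4.74e-06). In intron 2 of Col27a1, chr4:63221834 measured 42.4%, 53.3% and 35.0% in controls and 22.2%, 7.69% and 13.04% in DMM, from 13 to 54 reads (-26.8 points, q = 0.0193). In coding exon 3 of Col27a1, chr4:63225714 measured 47.4%, 60.4% and 48.8% in controls and 24.6%, 41.9% and 20.6% in DMM (-25.2 points, q = 0.00234). At all 3 every DMM library lay below every control. At 4 weeks the same cytosines differed by -6.95, -3.24 and 2.59 points and overlapped between limbs.

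In the other collagens the cytosine with the largest 12-week difference stayed short of a call. At Col1a1 it was chr11:94945625 in intron 31 (-27.0 points, q = 0.106), with limbs that overlapped. At Col2a1 it was chr15:97973884 in the 5 kb after the gene, between 42.0% and 53.7% in controls and at 17.1%, 27.3% and 26.1% in DMM (-24.8 points, q = 0.0182), without overlap and short of 25 points in pooled reads, though the library means differed by -25.1. Col5a2 had -23.5 points at chr1:45459062 in intron 1 (q = 0.0115), Col11a2 -22.5 at chr17:34042440 in coding exon 3 (q = 0.0693) and Col1a2 -21.8 at chr6:4504531, at -1087 from the start (q = 0.0244). Col24a1 had -20.0 points at chr3:145514192 in intron 52 (q = 0.0437), Col11a1 -16.3 at chr3:114066385 in intron 3 (q = 0.127) and Col3a1 -13.1 at chr1:45315982 in intron 1 (q = 0.108).
At 4 weeks the largest read-weighted differences were -24.3 points at chr11:94947937 in coding exon 40 of Col1a1 (63.6%, 42.9% and 76.0% in controls, 34.7%, 9.52% and 29.7% in DMM, q = 0.126) and -24.1 at chr4:63225781 in coding exon 3 of Col27a1 (64.7%, 38.2% and 58.8% in controls, 27.3%, 22.7% and 25.5% in DMM, q = 0.197). The library means differed by more, by -36.2 and -28.7 points. Neither overlapped between limbs and neither passed q.

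**Figure D5:**
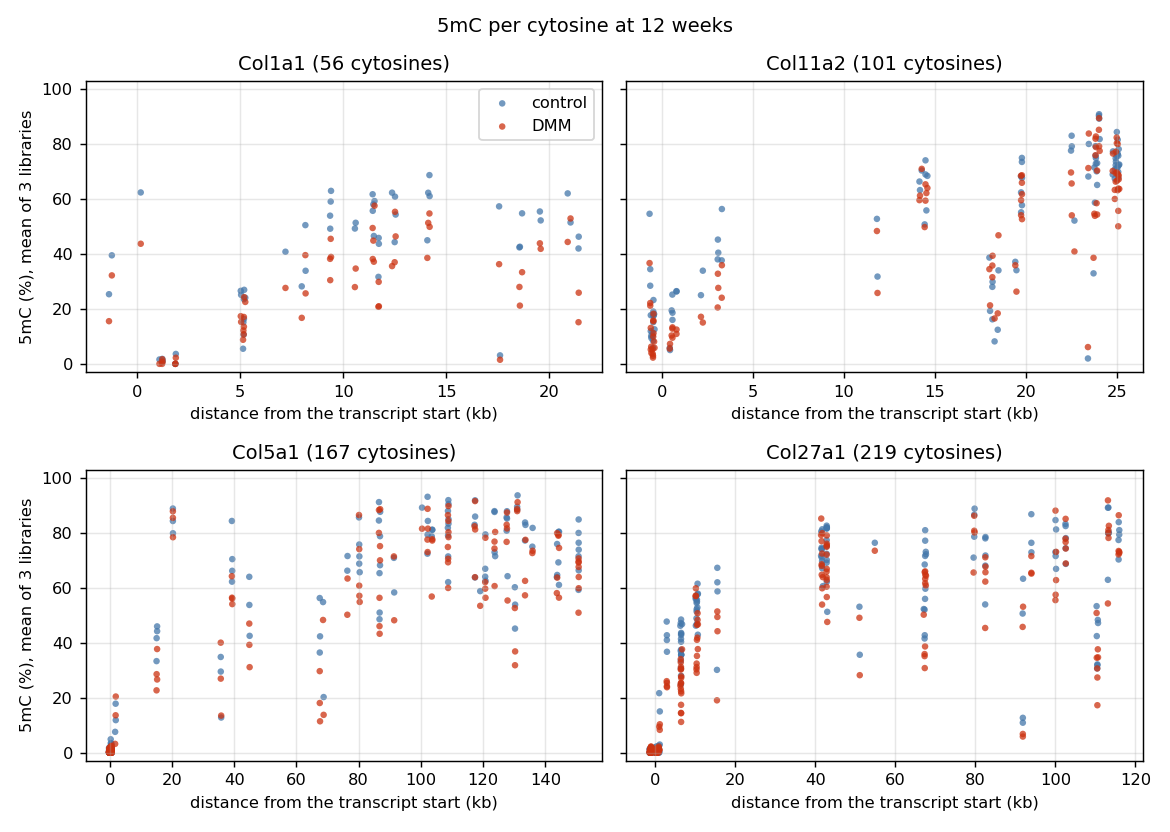
5mC in percent per cytosine at 12 weeks, as the mean of 3 control and of 3 DMM libraries, against the distance from the transcript start in kb, for Col1a1, Col11a2, Col5a1 and Col27a1. Cytosines near the start of Col5a1 and Col27a1 lie close to 0, and most DMM points farther on lie below their control points.

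A region needed 3 or more tested CpGs no farther than 100 bp from each other, a mean read-weighted difference of at least 20 points and 1 CpG past 25 points at q under 0.01. At 4 weeks no collagen had one, and 0.0% of the 101600 runs of such CpGs in the genome passed. At 12 weeks 2 collagen regions passed, both lower in DMM, where 0.318% of 98725 runs passed and 0.283% in this direction. The sequences of both regions are shown on the plus strand of GRCm38, because 2 of the 3 called cytosines lie in them, with their CpGs in capitals.
Col5a1 intron 9, chr2:27953911-27954012: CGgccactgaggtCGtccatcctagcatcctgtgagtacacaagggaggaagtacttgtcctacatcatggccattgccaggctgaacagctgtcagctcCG
Col27a1 exon 3, chr4:63225667-63225786: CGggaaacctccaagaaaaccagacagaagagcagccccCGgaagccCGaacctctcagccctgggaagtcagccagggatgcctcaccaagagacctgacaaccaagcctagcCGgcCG
The Col5a1 region lies 67486 bases from the start and holds 3 CpGs, with a mean 5mC of 40.1%, 41.0% and 53.9% in 12-week controls and 17.6%, 16.9% and 24.6% in DMM (-23.5 points read-weighted, -25.3 between library means). The Col27a1 region lies 10256 bases from the start and holds 5 CpGs, read on 7 cytosines, with a mean of 56.5%, 46.2% and 53.6% in controls and 32.9%, 42.8% and 29.5% in DMM (-20.3 points read-weighted, -17.0 between library means). On library means, an alternative added after seeing the data, the Col27a1 region stayed short of 20 points and 1 collagen region was left, where 0.278% of runs passed. In both, every DMM library lay below every control, by a wide margin in Col5a1 and by a small one in Col27a1, where DMM 2 lay near control 2. Only 1 region was left without 12-week control 1, control 2, DMM 1 or DMM 3, when 0.303%, 0.456%, 0.0992% and 0.392% of all runs passed.

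5hmC was the percentage of C without oxidation minus that with oxidation, over cytosines covered in all 12 files of a week. It is a small difference between 2 larger values, and 1 12-week DMM file without oxidation, of replicate 1, carries the number 2 in its name, so the 12-week values rest on the label. At 4 weeks 1 of the 10 collagens did not overlap between limbs, Col11a2, at 7.08%, 8.46% and 8.13% in controls and 8.77%, 10.8% and 8.98% in DMM, where 8.75% of all genes did not overlap. At 12 weeks 2 did not, against 14.8%, both higher in DMM. With negative values set to 0 the 4-week count was 0 (7.33% of all genes), and with at least 20 reads the 12-week count was 0 (13.1%). Leaving out 1 library gave 0 to 5 at 4 weeks (15.8% to 28.6%) and 2 to 4 at 12 weeks (22.4% to 27.2%). Col5a2 measured 5.24%, 3.43% and 7.62% in controls and 8.21%, 11.2% and 13.7% in DMM over 11 cytosines, and Col27a1 4.12%, 4.06% and 3.38% in controls and 6.12%, 4.23% and 5.50% in DMM over 203. The p of each was 0.1 by the exact permutation test, two-sided. The mean over all cytosines was also higher in 12-week DMM, at 2.04% ± 0.29 against 1.53% ± 0.10 (SD, n = 3). Col1a1 was the 1 collagen with a lower mean in DMM at 12 weeks, at 2.90% against 4.12%, and its limbs overlapped. The median 12-week difference over all genes was 0.277 points, also higher in DMM. At 4 weeks Col11a1 and Col1a2 had the lower means in DMM and Col1a1 a higher one, all with overlap. Across the 10 collagens the 12-week control means ran from 1.64% at Col2a1 to 6.34% at Col3a1.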

How the data were processed

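Microdissected mouse knee cartilage was profiled by RNA-seq (12 libraries) and reduced representation oxidative bisulfite sequencing (24 files, with and without oxidation), and limb, week and replicate were taken from the labels. The authors used STAR to align the trimmed RNA reads and featureCounts to total them over RefSeq transcripts. The deposited counts are raw, and 1 read can count for several transcripts of a gene. The labels describe poly(A) libraries, the study's methods full-length cDNA with the SMART-Seq kit. For methylation the authors deposited, for each CpG cytosine, its coverage and the percent of C and of T among the reads, and cytosines under 10 reads do not appear. Per the labels the reads were processed with Bismark and the build is mm10, whereas the study's methods name an in-house pipeline.

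The members, lists and tests were chosen with earlier results of these data known. The named genes were all 10 collagens, per list the 3 genes of smallest unadjusted p at each week, the 5 most correlated genes of Col2a1, Col1a1 and Col3a1, the cytosine of largest difference per collagen and all called regions. All 30048 transcript rows were fitted in edgeR 4.0.16 (R 4.3.3; quasi-likelihood, robust, TMM, edgeR's filter on low counts) within each week, and all 12 libraries together for comparisons between weeks, with Benjamini-Hochberg adjustment over all rows tested. All 10 collagens passed the filter. DESeq2 1.42.0 was an alternative. CPM, and RPKM per kb of exons, are on 1 TMM scale over the 12 libraries, and correlations use log2 CPM. 5mC was tested on the methylated reads (coverage times the percentage of C) with a likelihood ratio test in Python 3.11.15 (numpy 2.4.6, pandas 2.3.3, scipy 1.17.1), where all 6 oxidised libraries of a week had 10 reads or more. Gene means weigh each cytosine once. Groups did not overlap where every DMM library lay on 1 side of every control library. Comparisons share the libraries of a week or limb and are not independent. Both tests were tested on simulated data. The simulated 5mC reads held no spread between the libraries of a limb, so they cannot show how the pooled-read test behaves with such spread. Positions were checked against GRCm38; gene spans cover all RefSeq transcripts of a gene, and starts are those of the transcript used.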

Additional observations from a re-analysis of the deposited data

How the results depend on the processing

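Pools of 3 knees and 3 libraries a group limit precision, and a two-sided exact permutation test cannot go below 0.1. Other settings were the normalization, the filter, all 12 libraries in 1 fit, 1 row per gene, the replicate number as a block, a muscle score, and for methylation the coverage minimum, merged strands, thresholds, weights and overdispersion. DESeq2 called 1 collagen at 4 weeks, 3 at 12 weeks and 2 between control weeks. At 12 weeks overdispersion left 0 called cytosines and 0 regions (0.0% of all), a difference of 20 points gave 15 cytosines (0.674% of all) and unweighted means 6 (0.212%). Gaps of 50 bp, a coverage minimum of 20 and unweighted means left 1 region each (0.304%, 0.334% and 0.278% of all runs). A coverage minimum of 20 gave 1 gene mean without overlap at 4 weeks (8.46% of all genes) and 5 at 12 weeks (29.6%), and pooled reads 5 (15.4%). For 5hmC, negative values at 0 left 0 collagens at 4 weeks (7.33% of all genes), and a coverage minimum of 20 left 0 at 12 weeks (13.1%). The cause was not tested, except that a higher coverage minimum tests fewer cytosines.

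The replicate numbers were checked for pairing by correlating deviations of same-numbered libraries. For RNA the values were 0.375, -0.453 and 0.115 at 4 weeks and -0.632, 0.498 and -0.239 at 12 weeks. For DNA they lay between -0.0551 and 0.258. With 3 libraries a group these values cannot show whether same-numbered pools hold knees of the same mice, and no label says so. With the replicate block edgeR called 5 collagens at 12 weeks (Col2a1, Col5a1, Col5a2, Col24a1, Col27a1) and none at 4 weeks, where it called 3.49% of all transcripts at 12 weeks and 1.67% at 4 weeks, and 7 gene means had 1 sign in all 3 numbered pairs at 4 weeks and 10 at 12 weeks, as had 44.6% and 44.8% of all genes.

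Leaving out 1 library gave 0 to 0 called collagens at 4 weeks (0.0% to 0.553% of all transcripts), 0 to 1 at 12 weeks (0.0% to 4.04%), 0 to 3 between control weeks (0.169% to 21.4%) and 1 to 3 between DMM weeks (7.69% to 29.2%). At 4 weeks it gave 0 to 4 cytosines (0.000344% to 0.21% of all), 0 to 2 regions (0.0% to 0.281%) and 0 to 7 gene means (13.6% to 42.6%). At 12 weeks it gave 1 to 8 cytosines (0.129% to 0.409%) and 1 to 2 regions (0.0992% to 0.456%). It gave 0 to 5 5hmC means at 4 weeks (15.8% to 28.6%) and 2 to 4 at 12 weeks (22.4% to 27.2%). Ratios without overlap numbered 1 to 3 at 4 weeks and 4 to 5 at 12 weeks. The share of all gene pairs was not computed under these omissions, so these counts of ratios have no background.

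Some fold changes turned sign, of which Col27a1 at 4 weeks was not small, at -0.52 in the main fit. With the muscle score they were -0.13 for Col1a1, -0.0460 for Col1a2, 0.76 for Col24a1 and 0.67 for Col27a1 at 4 weeks and 0.0423 for Col1a1 and 0.0785 for Col1a2 at 12 weeks, 0.17 for Col1a1, 0.13 for Col1a2 and 0.0738 for Col5a2 in the difference between weeks and 0.0232 for Col27a1 between control weeks, and with the block 0.0198 for Col1a2 at 12 weeks. Without 1 library they ran at 4 weeks from -0.16 to 0.51 for Col2a1, -0.0595 to 0.12 for Col11a1, -0.31 to 0.35 for Col1a1, -0.15 to 0.48 for Col1a2 and -0.36 to 0.10 for Col24a1. At 12 weeks they ran from -0.0322 to 0.45 for Col11a2, -0.36 to 0.23 for Col1a1 and -0.30 to 0.28 for Col1a2. The difference between weeks ran from -0.0016 to 0.45 for Col11a1, -0.48 to 0.23 for Col1a1, -0.56 to 0.15 for Col1a2, -0.10 to 0.26 for Col5a1 and -0.26 to 0.12 for Col5a2. Between control weeks the range was -0.39 to 0.0568 for Col11a1, -0.18 to 0.0399 for Col5a1 and -0.67 to 0.10 for Col27a1, and between DMM weeks -0.10 to 0.21 for Col11a1 and -0.15 to 0.19 for Col5a1. The 4-week 5mC difference of Col11a1 ran from -1.40 to 0.40 points.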
